A study of Mus musculus with 16 samples.

Results

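The clustered histone genes are the gene families that supply most of the histone protein of a dividing cell. They were taken here as every mouse gene symbol that begins with Hist1h, Hist2h, Hist3h or Hist4h and has a count in all 16 libraries. This gave 64 genes of the 23354 symbols used. By histone type they were 5 H1, 17 H2A, 19 H2B, 10 H3 and 13 H4 genes. The rule reads the symbol and whether a count is given, not its level. Single genes are described where they reached 1 CPM (counts scaled to the size of each library) in at least 4 libraries, which 44 genes did. The other 20 genes together held 475 counts, or 1.41% of all counts of the 64 genes, and enter only the sums per histone type.

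The libraries came from 16 whole tumours of AU565(pv), a HER2-positive human breast cancer cell line grown as mammary fat pad xenografts. The host strain was SCID, which has no mature T or B cells. Tumours of 20 to 25 mm2 were treated by intraperitoneal injection and harvested 2 days after treatment began. Vehicle mice received D5W, a dextrose solution, on days 0 and 1 and PBS on day 0. Trastuzumab mice received this antibody against HER2 at 10 mg/kg with D5W on days 0 and 1. Panobinostat mice received this inhibitor of histone deacetylases on days 0 and 1, at 15 mg/kg each time, with PBS on day 0. Combination mice received both drugs at these doses. The labels place the trastuzumab dose on day 0 in the treatment protocol and on day 1 in the series design. Each group held 4 mice, and all groups shared the same host strain and tumour line. Libraries are named by group and by the mouse number of the labels.

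Counts were deposited for mouse genes, while the tumour cells are human, so the values are read as mainly those of mouse host cells. Histone genes are strongly conserved, and human reads that aligned to a mouse histone gene would add to its count. Their share was not measured. Markers of fibroblasts, macrophages, endothelial cells and adipocytes were detected in every group. So were the 7 luminal tumour markers, Krt8, Epcam and Erbb2 among them, which summed to 596 to 1050 CPM per library. Whether mouse cells or human reads gave those counts was not tested. T and B cell markers summed to between 0.632 and 4.52 CPM, and 3 of the 4 found in the table stayed under 1 CPM in every library. In whole tumours, fewer cells of a type and less RNA per cell cannot be told apart. Total counts ran from 4848244 to 8140782 per library. The vehicle library of mouse 6 and the combination library of mouse 22 had the lowest TMM scaling factors, 0.952 and 0.962.

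Histones H2A, H2B, H3 and H4 form the core particle around which DNA is wound, and the linker histone H1 binds where the DNA enters and leaves it. Clustered histone genes are mostly transcribed as cells replicate their DNA. Most of their messenger RNAs end in a conserved stem-loop instead of a poly(A) tail. Panobinostat acts on the enzymes that remove acetyl groups from histone proteins, and its effect on the proteins was not measured. The TruSeq kit that the labels name selects polyadenylated RNA, so a level given here describes the polyadenylated or otherwise captured part of each gene's RNA.

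The stem-loop was sought by a fixed histone consensus in the annotated transcripts (GENCODE M21, GRCm38, the mm10 build of the files). That consensus has a 6-letter stem on each side of a 4-letter loop, 16 letters in all. The stem-loop is shown because it defines how these messenger RNAs end. The loop is in capitals.
Hist1h1c, Hist1h2bf, Hist1h2bm and 20 other genes: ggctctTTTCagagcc
7 H4 genes, Hist1h4m among them: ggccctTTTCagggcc
Hist1h2bb, Hist1h2bk, Hist1h3e and 3 other genes: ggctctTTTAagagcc
Hist1h4i and Hist2h4: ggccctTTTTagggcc
The forms shown for Hist1h1c and for Hist1h2bb share both arms of the stem and differ within the loop. A match was found in 43 of the 64 genes (67.2%), against 59 of all 55341 annotated genes (0.107%), the 43 included. Since the consensus is that of histone genes, a higher share among them was built into the search. In 22 genes the annotated transcript ran on for 100 bases or more past the stem-loop, and in 21 it ended sooner. Hist1h1c ran on for 840 bases. Median levels of the mean CPM were 1.62 for the 22 genes with the longer end, 3.39 for the 21 with the shorter end and 3.24 for the 21 with no match. A match is a description of the annotated sequence, and the ends of the RNA in these libraries were not measured.

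The sequence before the transcription start is printed for 3 genes, an H1, an H2B and an H4 gene, because the types differed in the letters found there (RefSeq, GRCm38.p6, 200 bases, written along the strand of the gene). Capitals mark CCAAT, its reverse complement ATTGG, or TATAAA.
Hist1h1c, chr13:23738607-23738806, plus strand: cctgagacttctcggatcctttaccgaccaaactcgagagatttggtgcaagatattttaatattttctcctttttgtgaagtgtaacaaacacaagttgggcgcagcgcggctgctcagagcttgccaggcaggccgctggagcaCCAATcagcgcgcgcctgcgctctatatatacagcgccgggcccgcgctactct
Hist1h2bl, chr13:21716184-21716383, minus strand: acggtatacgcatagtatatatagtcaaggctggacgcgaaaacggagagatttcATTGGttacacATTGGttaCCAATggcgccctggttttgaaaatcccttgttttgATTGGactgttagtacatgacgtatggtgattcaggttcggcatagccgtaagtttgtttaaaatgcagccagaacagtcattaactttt
Hist1h4i, chr13:22041363-22041562, minus strand: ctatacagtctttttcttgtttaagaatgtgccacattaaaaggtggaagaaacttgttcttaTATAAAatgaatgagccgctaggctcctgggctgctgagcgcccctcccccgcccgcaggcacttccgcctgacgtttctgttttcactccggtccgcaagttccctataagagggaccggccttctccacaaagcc
Over the 55 of 64 genes matched in the RefSeq table, windows from 250 bases before to 50 after the start were searched on both strands. CCAAT was found in 46 (83.6%), against 37.9% of all 27025 promoters. It was present in all 5 H1, 14 H2A, 16 H2B and 8 H3 promoters matched, and in 3 of 12 H4 promoters. TATAAA was found in 32 (58.2%), against 14.2% of all promoters. The octamer ATTTGCAT was found in 13 (23.6%), against 1.75% of all promoters, and these were 7 of 14 H2A and 6 of 16 H2B promoters. None of the matched H1, H3 or H4 promoters held that octamer in this window. Some H2A and H2B genes start close together on opposite strands, so their windows cover much of the same stretch. Hist1h2ae with Hist1h2bg, Hist1h2ah with Hist1h2bk and Hist1h2ai with Hist1h2bl are such pairs. A site in a shared stretch is counted for each gene of the pair, so the H2A and H2B counts are not separate.

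The Hist1h genes lie on chromosome 13, where 54 of 55 fall between positions 21715763 and 23934851 (mm10). Hist2h genes (5) lie on chromosome 3, Hist3h genes (3) on chromosome 11 and 1 Hist4h gene on chromosome 6. The annotation lists 61 of the 64 as protein coding and 3 as pseudogenes, namely Hist1h2al, Hist1h2aj and Hist3h2bb-ps. Members of a type are near copies of each other. In 31 of the 64 genes at least 50% of all 50-letter stretches also occur in the transcript of another gene, with a median of 67.6% for H2A and 2.25% for H1. Reads from such stretches cannot be assigned with certainty, and how the authors counted them is not given in the sources used here. All 17 H2A genes also overlap the exons of another annotated gene, and the kit does not mark strand. Single H2A, H2B, H3 and H4 genes are therefore uncertain as to the copy that gave the reads.

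H2B genes held 51.5% of all counts of the 64 genes, H2A genes 23.6%, H1 genes 19.7%, H4 genes 3.81% and H3 genes 1.4%. All 17 H2A and 18 of 19 H2B genes reached the level rule, against 2 of 5 H1, 2 of 10 H3 and 5 of 13 H4 genes. Per kilobase of annotated exon, the median level of a gene was 9.16 CPM for H2B, 7.41 for H2A, 0.852 for H4, 0.367 for H3 and 0.137 for H1. H2A and H2B genes thus stood well above H3 and H4 genes in these counts. The exon lengths are those of GENCODE M21, and the release used for counting is not given. Whether RNA capture, the counting of shared reads or human reads made this contrast was not tested. A single H1 gene, Hist1h1c, held 19.2% of all counts of the 64 genes.

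Levels per kilobase placed Hist1h2al (54.1 CPM per kb), Hist1h2bl (46.8), Hist1h1c (41.8), Hist1h2bn (35.9), Hist1h2bf (31.4) and Hist1h2bm (30.2) above Hist1h2bc (19.6) and Hist2h2be (7.83) among the 8 genes of highest mean CPM. Hist2h2be, an H2B gene with a long annotated transcript, shared no 50-letter stretch with another gene. That doubt is therefore smaller for its reads among annotated mouse transcripts, while the alignment settings and any human reads remain unknown. Hist1h2bc shared 30.6%, Hist1h2bl 82.8% and Hist1h2bn 86.4% of such stretches.

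The study's design asks what each drug does with and without the other. Across all clustered histone genes, the summed level was 374 ± 34.6 CPM in vehicle, 368 ± 21.2 in trastuzumab, 342 ± 23.4 in panobinostat and 308 ± 25 in combination tumours (SD, n = 4 each). The 8 panobinostat-treated libraries (panobinostat alone or in combination) held 325 ± 28.8 CPM and the other 8 held 371 ± 26.8 (SD), a log2 ratio of -0.19, with overlapping ranges. H2B genes made up most of the difference in the sum, at 162 ± 16.1 against 198 ± 22.3 CPM. No p is given for sums, because they are over a chosen list.

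The H2B sum by library was 223, 163, 177 and 219 CPM in vehicle mice 3, 6, 21 and 29, and 191, 195, 224 and 196 in trastuzumab mice 12, 15, 20 and 24. It was 189, 147, 180 and 162 CPM in panobinostat mice 4, 7, 8 and 13, and 143, 155, 170 and 152 in combination mice 2, 11, 16 and 22. Every combination library lay below every trastuzumab library, while the panobinostat and vehicle ranges overlapped. The log2 ratio of panobinostat-treated to other libraries was -0.29 and lay between -0.33 and -0.26 with any 1 library left out.

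The H2A sum was 80.5 ± 9.87 CPM in the 8 panobinostat-treated libraries and 84.5 ± 10.2 in the other 8 (SD), a log2 ratio of -0.07. Panobinostat alone stood at 86.9 ± 9.55 CPM and vehicle at 83.8 ± 13.2 (SD, n = 4 each), so the H2A and H2B sums differed in the direction of their means there. The H4 sum was 12.1 ± 2.06 CPM against 14.4 ± 1.91, a log2 ratio of -0.25 with overlapping ranges.

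The H3 sum was low throughout, at 5.03, 6, 4.86 and 6.09 CPM in vehicle mice 3, 6, 21 and 29 and 4.47, 3.86, 4.29 and 3.7 in panobinostat mice 4, 7, 8 and 13. These 2 groups did not overlap, and the sums of the other types did. The H3 sums rest on few counts, 25, 38, 28 and 40 in these vehicle and 25, 23, 24 and 23 in these panobinostat libraries. Of all genes tested, 1.87% were lower without overlap in this comparison. Trastuzumab libraries held 5.02 to 6.07 CPM and combination libraries 2.68 to 5.36, and the latter overlapped both vehicle and trastuzumab. Over 8 against 8 libraries the log2 ratio of the H3 sum was -0.36, and the ranges overlapped.

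**Figure D1:**
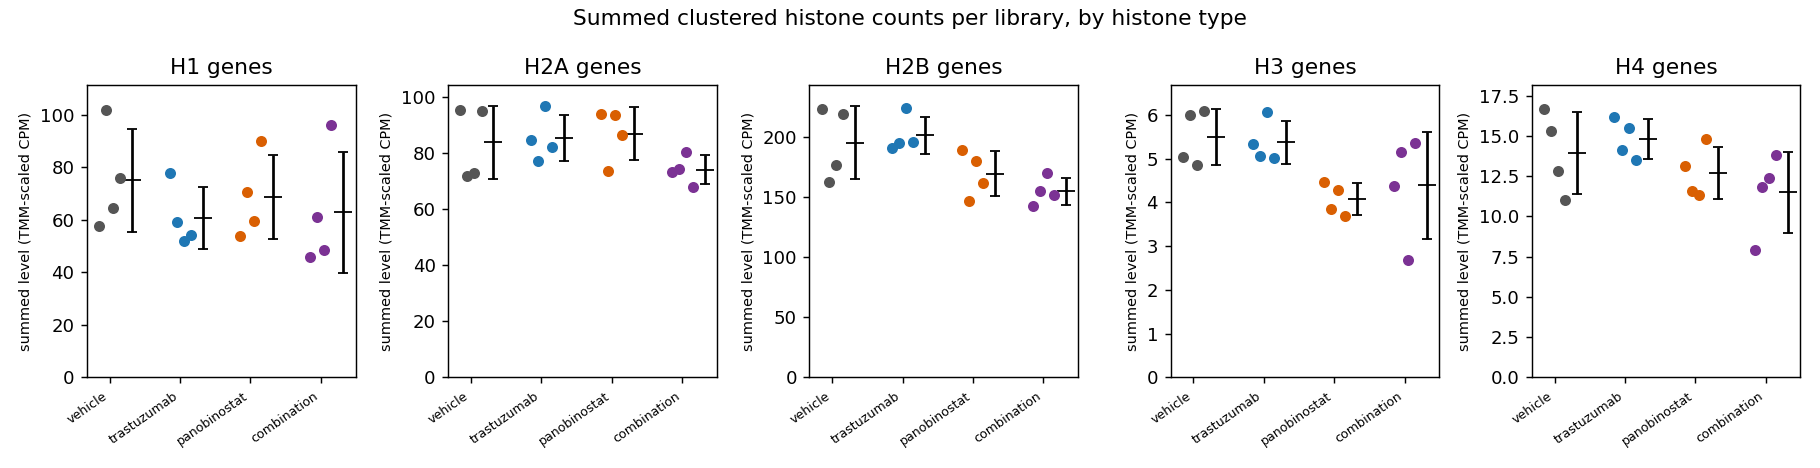
Summed level of the clustered histone genes of each type (TMM-scaled CPM, linear axis from 0) in each of 16 libraries; points are libraries, and the bar beside each group is its mean ± SD (n = 4). H2B sums run from 143 to 170 CPM in combination libraries, below all 4 trastuzumab libraries at 191 to 224, while H2A sums overlap between the groups.

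Hist1h1c (chr13:23738808-23740367, plus strand) encodes a linker histone and was the most counted of the 64 genes. It stood at 55.6, 101, 63.7 and 74.3 CPM in vehicle mice 3, 6, 21 and 29, and at 76.4, 57.6, 51.5 and 53.2 in trastuzumab mice 12, 15, 20 and 24. Panobinostat mice 4, 7, 8 and 13 stood at 51.9, 68.8, 58.1 and 88.5 CPM, and combination mice 2, 11, 16 and 22 at 43.6, 60.1, 47.2 and 92.8. The highest library of each group was that of mouse 6, 12, 13 and 22, and all groups overlapped. The log2 change with panobinostat, averaged over trastuzumab, was -0.05 (SE 0.17, edgeR adjusted p = 0.948). Its sign turned when any one of vehicle mouse 6, trastuzumab mouse 12 or combination mouse 2 was left out, with values of 0.037, 0.009 and 0.012.

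The spread between replicate libraries was set beside that of other genes of near count, since the chi-square of the counts within groups grows with the count. Per degree of freedom, sampling noise alone gives 1. For Hist1h1c, at a mean of 404 counts, it was 30.8, against a median of 6.75 over 2817 other genes within 1.5 times its count, of which 6.74% were higher. Hist3h2a was at 5.63 against a median of 1.96, with 7.31% of its 1983 genes of near count higher. Hist1h4i was at 3.92 against 1.93, with 13.6% higher. Spread in excess of sampling noise, as a share of the mean, was 38.7% for Hist3h2a, 32.1% for Hist1h4i and 27.2% for Hist1h1c, and 4 of the 44 genes exceeded Hist1h1c in it.

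Most clustered histone genes lay on the other side, with 31 of 44 below the median of genes of near count. Lowest were the testis histone gene Hist1h2aa at 0.345 and Hist1h2ac at 0.431, where 99.9% and 99.4% of genes of near count were higher. Hist1h2al was at 1.63 against a median of 2.94.

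**Figure D2:**
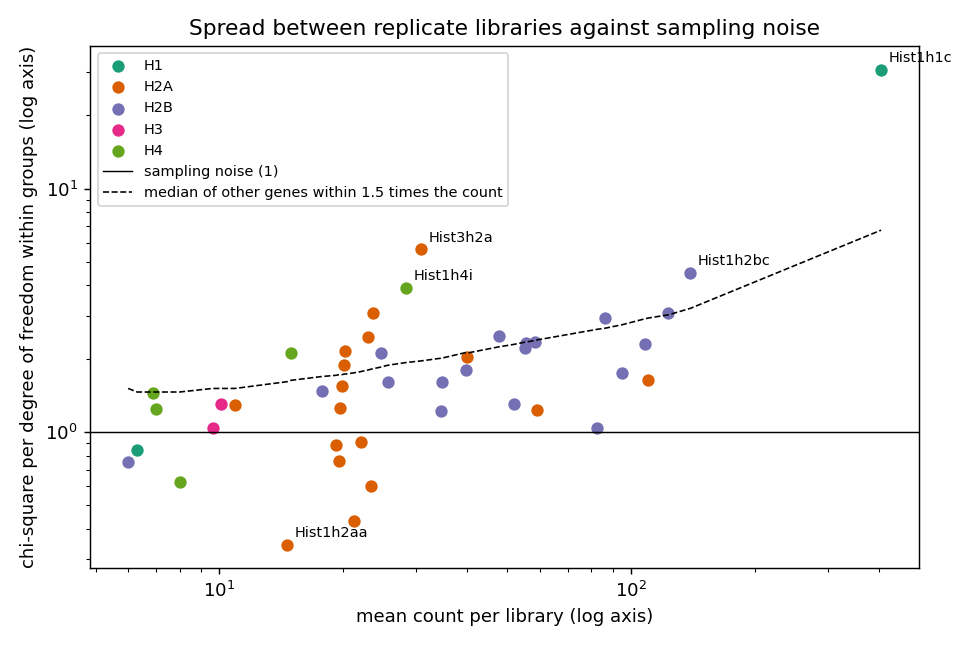
Chi-square of the counts within groups per degree of freedom (12 degrees, log axis) against mean count per library (log axis) for the 44 clustered histone genes at the level rule, coloured by type. The solid line is sampling noise at 1 and the dashed line the median of other genes within 1.5 times the count, which rises with the count to 6.75 at Hist1h1c; 31 of 44 histone genes lie below it.

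The libraries high in Hist1h1c were also high in adipocyte markers (Adipoq, Fabp4, Plin1, Lep and Cidec, all 5 in the table and none under 1 CPM in all 16 libraries). These markers summed to 1010, 4090, 2280 and 3560 CPM in vehicle mice 3, 6, 21 and 29 and to 5300, 1830, 1710 and 917 in trastuzumab mice 12, 15, 20 and 24. They summed to 1810, 4600, 1130 and 6760 CPM in panobinostat mice 4, 7, 8 and 13 and to 2470, 3630, 1320 and 4870 in combination mice 2, 11, 16 and 22. The library of each group with the most Hist1h1c was also the one with the most adipocyte marker counts. The ranges of the 4 groups overlapped.

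Over the 16 libraries, log2 levels of Hist1h1c and the adipocyte sum correlated with Pearson's r = 0.75 (permutation p = 0.00092, adjusted 0.0126 over 72 relations) and Spearman's rho = 0.74 (permutation p = 0.00121, adjusted 0.0124). Without the 2 libraries farthest from the median adipocyte sum r was 0.71, and within groups, after the group means were removed, it was 0.81. Hist2h2be went the other way, with r = -0.71 (permutation p = 0.00229, adjusted 0.0206) and rho = -0.68 (permutation p = 0.00462, adjusted 0.0384). Its r was -0.62 without the 2 farthest libraries and -0.73 within groups. With the adipocyte sum, r was also negative for Hist1h2bm (-0.63), Hist1h2bf (-0.56), Hist1h2al (-0.42) and Hist1h2bn (-0.34). It was positive for Hist1h2bl (0.12) and Hist1h2bc (0.36), and none of these had an adjusted p of r under 0.05. Of the 72 relations between 8 histone genes and 9 marker sums, 12 had an adjusted p of r under 0.05. They were those of Hist1h1c and Hist2h2be with adipocyte markers, 3 with macrophage markers, 6 with erythroid or neutrophil markers and 1 of Hist1h1c with luminal markers. The last had r = -0.68 (permutation p = 0.00373, adjusted 0.0269), and -0.64 within groups. Its r became -0.42 without the 2 farthest libraries, and rho was -0.48 (permutation p = 0.0631, adjusted 0.164), so it depended in part on those libraries. Both quantities share the scaling of their library, and whether the fat content of a tumour sets these levels was not tested.

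**Figure D3:**
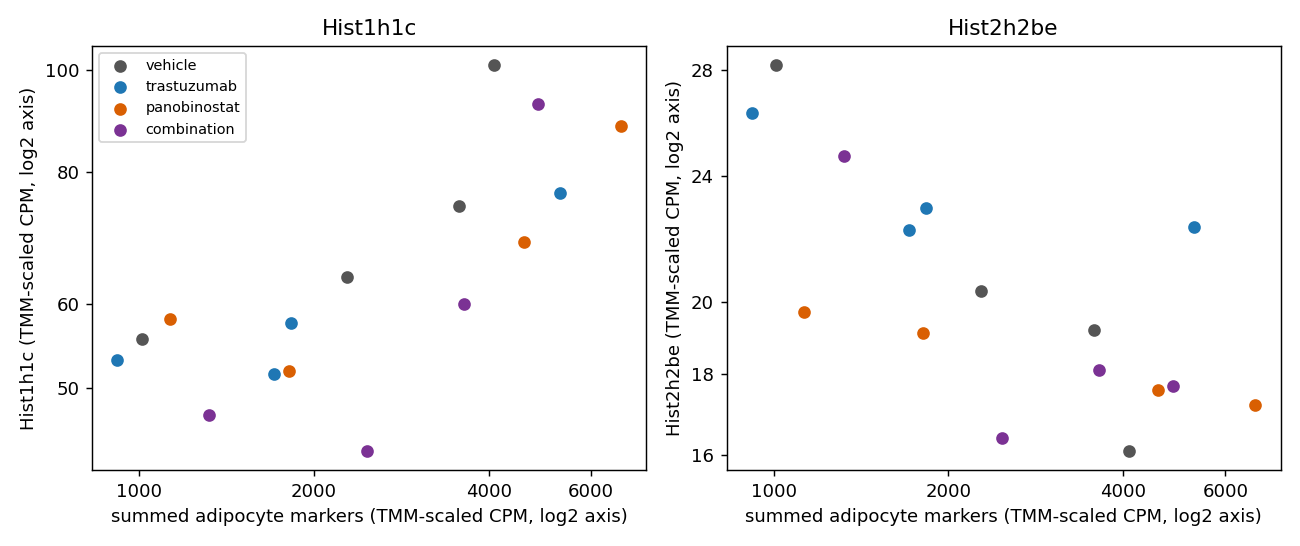
Level of Hist1h1c (left) and Hist2h2be (right) against the summed adipocyte markers in the same library (TMM-scaled CPM, log2 axes on both); each point is 1 of 16 libraries, coloured by group. Hist1h1c rises with the adipocyte sum (r = 0.75) and Hist2h2be falls with it (r = -0.71), and the 4 groups are mixed along the axis.

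Macrophage markers moved against 3 H2B genes from library to library. All 5 were found in the table (Adgre1 under its older symbol Emr1), and they summed to 1250 to 2020 CPM in vehicle, 1210 to 1580 in trastuzumab, 1360 to 1890 in panobinostat and 1590 to 1960 in combination tumours. Hist1h2bn correlated with that sum at r = -0.78 (permutation p = 4e-04, adjusted 0.0096) and rho = -0.78 (adjusted 0.00778). Its r was -0.91 without the 2 farthest libraries and -0.86 within groups. Hist1h2bm gave r = -0.75 (permutation p = 0.00085, adjusted 0.0126) and rho = -0.69 (adjusted 0.0384), with -0.66 without the 2 farthest libraries and -0.78 within groups. Hist1h2bf gave r = -0.66 (permutation p = 0.00607, adjusted 0.0364) and rho = -0.79 (adjusted 0.00778), with -0.68 without the 2 farthest libraries and -0.71 within groups. Their part in the differences between groups was not tested.

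Of the 64 genes, 39 passed the filter on low counts and were tested gene by gene with edgeR among 15610 genes. They were 1 H1, 17 H2A, 17 H2B, 2 H3 and 2 H4 genes. With panobinostat averaged over trastuzumab (8 against 8 libraries), 1 of the 39, Hist1h2al, was lower at an adjusted p under 0.05 and none was higher. Over all genes tested, 0.897% were called lower in that comparison and 2.13% higher. The change lay below 0 for 28 of the 39, against 48.7% of all genes. Their median log2 change was -0.22, against 0.01 over all genes, and the changes ran from -0.52 to 0.18.

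The types differed in these changes. All 17 tested H2B genes lay below 0, from -0.52 (Hist1h2bp) to -0.13 (Hist1h2bq), with a median of -0.29. Of the 17 H2A genes 11 lay above 0 and 5 below, with a median of 0.07, from Hist1h2al at -0.49 to Hist2h2ac at 0.18. The remaining H2A gene, Hist1h2ah, was at 0 after rounding and just below 0 before it (ratio 0.998). Both H3 genes (median -0.35) and both H4 genes (median -0.18) lay below 0. An unadjusted p under 0.05 in the lower direction was reached by 10 H2B and 2 H2A genes, 12 in all, against 5.52% of all genes, and by none in the higher direction, against 7.94%. Over 8 against 8 libraries no histone gene was without overlap, where 0.237% of all genes were lower and 0.551% higher without overlap. No H2B gene passed the adjustment, and the difference between the types was not tested. Near-copies that share reads are not independent of each other, so these counts describe fewer separate genes than they list.

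**Figure D4:**
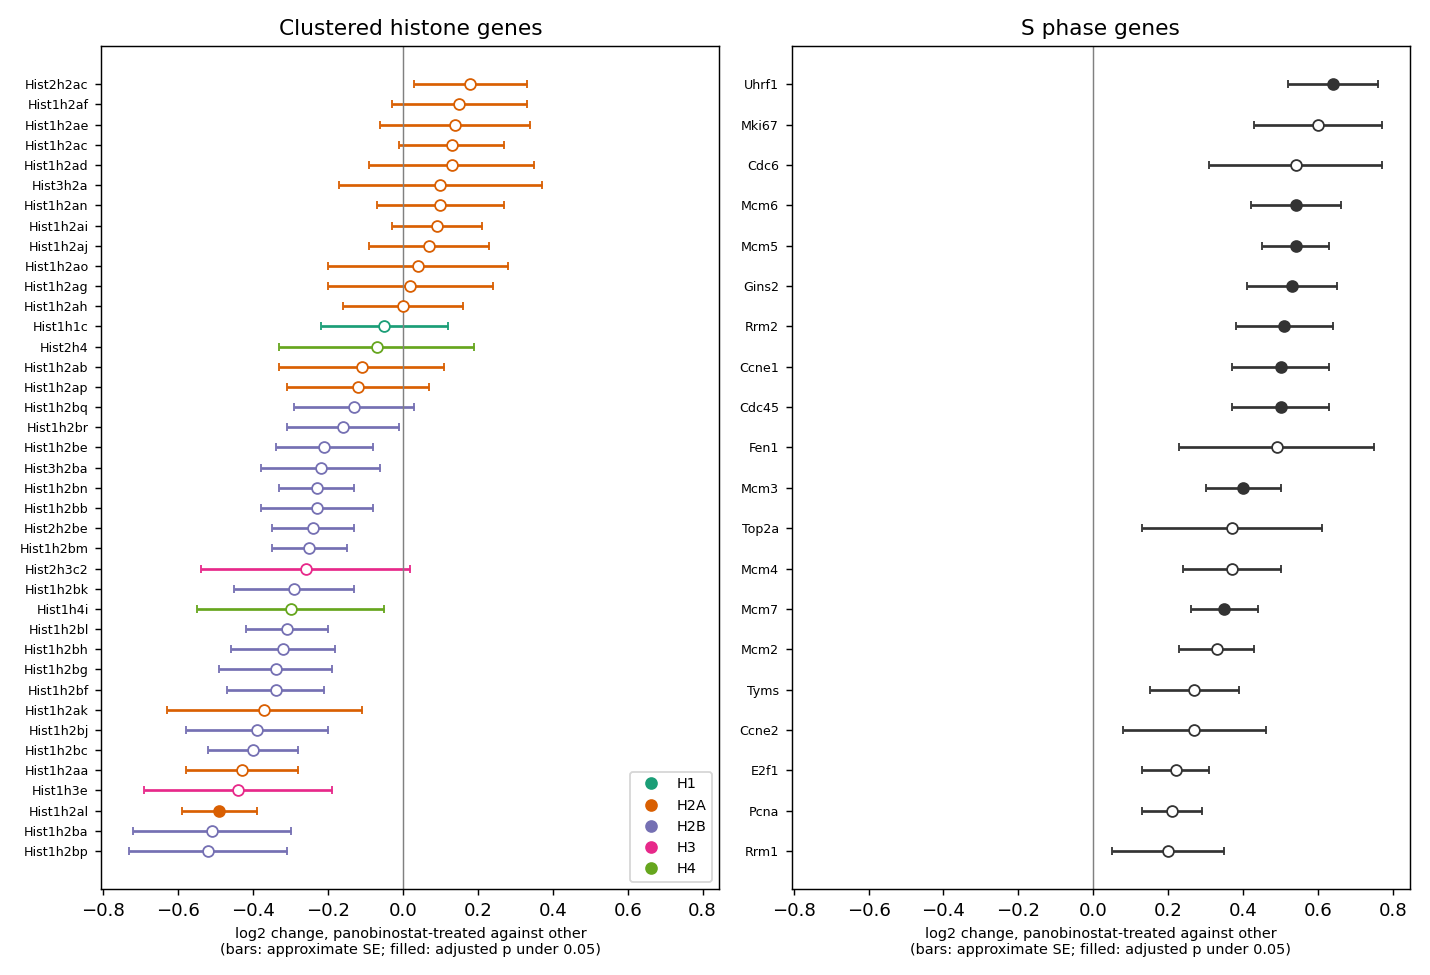
Log2 change of panobinostat-treated against other libraries (averaged over trastuzumab, 8 against 8) for the 39 tested clustered histone genes, coloured by type, and for 20 S phase genes; bars are approximate SE and filled points have an adjusted p under 0.05. All 17 H2B genes lie below 0 and only Hist1h2al is filled among the histone genes, while all 20 S phase genes lie above 0.

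Hist1h2al was the one clustered histone gene called in any comparison. It is annotated as a processed pseudogene of an H2A gene at chr13:51202727-51203065, minus strand, outside the main cluster, and overlaps the predicted gene Gm44341 on the opposite strand. Its level was 25.2, 17.1, 19.1 and 22.4 CPM in vehicle mice 3, 6, 21 and 29 and 20.4, 19.3, 24.9 and 23 in trastuzumab mice 12, 15, 20 and 24. It was 15.7, 14.6, 18.2 and 16.9 CPM in panobinostat mice 4, 7, 8 and 13 and 13.3, 15.3, 14.7 and 13.3 in combination mice 2, 11, 16 and 22. All 4 combination libraries lay below all vehicle and all trastuzumab libraries, and 1 panobinostat library lay within the vehicle range.

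With panobinostat averaged over trastuzumab, Hist1h2al fell by 0.49 on the log2 scale (SE 0.1, edgeR adjusted p = 0.00842), to 0.712 of its level in the other libraries. This call held with each of the 16 libraries left out in turn, with an adjusted p of at most 0.0223. The gene was also lower in the combination than in vehicle, by a log2 change of -0.56 (SE 0.14, adjusted p = 0.0361), and than in trastuzumab, by -0.63 (SE 0.13, adjusted p = 0.0423). The call against vehicle was lost without vehicle mouse 3 or 29 or any one of the 4 combination mice (adjusted p up to 0.117). The call against trastuzumab was lost without any one of 13 libraries, all but vehicle mice 3 and 6 and combination mouse 16 (up to 0.161). Panobinostat alone against vehicle gave -0.35 (SE 0.13, adjusted p = 0.448).

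The source of the reads counted for Hist1h2al is uncertain. Its 339 annotated letters match those of Hist2h2aa1 and Hist2h2aa2, which are intact H2A genes not analysed here, in all but 2 places (99.4% identity), and those of Hist2h2ac in all but 6 (98.2%). The 2 differing places are shown because only reads that cover one of them could tell the copies apart. The differing letter is in capitals, and positions count from 1 at the 5′ end of the Hist1h2al transcript.
Hist1h2al, 105 to 134: cgcggagcgtgtgggCgccggcgcgccggt
Hist2h2aa1, 105 to 134: cgcggagcgtgtgggTgccggcgcgccggt
Hist1h2al, 201 to 230: cgacaacaagaagacTcgcatcatcccgcg
Hist2h2aa1, 201 to 230: cgacaacaagaagacGcgcatcatcccgcg
With the Hist2h2aa1 letter first, the substitutions are T120C and G216T. G216T also separates Hist2h2ac from Hist1h2al. Hist2h2ac had a log2 change of 0.18 (SE 0.15, edgeR adjusted p = 0.684) with panobinostat averaged over trastuzumab. The 2 near-copies in the table thus stood on different sides of 0.

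Hist1h2bc, an H2B gene on chromosome 13, was the most counted H2B gene. Its level was 23.1, 28.3, 23.1 and 30.3 CPM in vehicle mice 3, 6, 21 and 29 and 27.9, 25.8, 27.6 and 20.1 in trastuzumab mice 12, 15, 20 and 24. It was 19.5, 18.8, 17.9 and 24 CPM in panobinostat mice 4, 7, 8 and 13 and 15.1, 17.9, 16.4 and 26.6 in combination mice 2, 11, 16 and 22. The highest combination library, mouse 22, lay within the vehicle and trastuzumab ranges, and the other 3 lay below both. The log2 change with panobinostat averaged over trastuzumab was -0.40 (SE 0.12, edgeR adjusted p = 0.101). With 1 library left out it ran from -0.51 to -0.35, with an adjusted p of up to 0.189. Only without combination mouse 22, the library that stood against the lower level, was Hist1h2bc called (-0.51, adjusted p = 0.0147), together with Hist1h2al. Without that library and vehicle mouse 6, an alternative chosen after seeing the data, it was -0.48 (adjusted p = 0.0272).

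Hist2h2be, an H2B gene on chromosome 3, stood at 28.2, 16.1, 20.3 and 19.2 CPM in vehicle mice 3, 6, 21 and 29 and at 22.3, 22.9, 22.2 and 26.3 in trastuzumab mice 12, 15, 20 and 24. Panobinostat mice 4, 7, 8 and 13 stood at 19.1, 17.6, 19.7 and 17.2 CPM and combination mice 2, 11, 16 and 22 at 16.4, 18.1, 24.7 and 17.7. Its panobinostat libraries lay below all trastuzumab libraries and inside the vehicle range. The log2 change was -0.24 (SE 0.11, edgeR adjusted p = 0.374), and it was -0.15 (adjusted p = 0.601) without vehicle mouse 3, the highest library.

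Hist1h2bl stood at 20.9, 19.3, 15.8 and 25 CPM in vehicle mice 3, 6, 21 and 29 and at 22.1, 16.4, 21.6 and 17 in trastuzumab mice 12, 15, 20 and 24. Panobinostat mice 4, 7, 8 and 13 stood at 18.8, 14.4, 15.2 and 17.9 CPM and combination mice 2, 11, 16 and 22 at 14.3, 16.5, 14.3 and 15.7. The combination libraries were at the low end and overlapped vehicle mouse 21 and trastuzumab mouse 15. The log2 change of Hist1h2bl was -0.31 (SE 0.11, edgeR adjusted p = 0.15).

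Hist1h2bn stood at 14.3, 14.1, 13.7 and 16.6 CPM in vehicle mice 3, 6, 21 and 29 and at 15.2, 13.4, 16.8 and 13.9 in trastuzumab mice 12, 15, 20 and 24. Panobinostat mice 4, 7, 8 and 13 stood at 15.4, 11.6, 15.9 and 12.4 CPM and combination mice 2, 11, 16 and 22 at 11, 12.4, 12 and 10.1. Here the 4 combination libraries lay below all vehicle and all trastuzumab libraries, while panobinostat libraries lay both below and within those ranges. The log2 change of Hist1h2bn with panobinostat averaged over trastuzumab was -0.23 (SE 0.1, edgeR adjusted p = 0.266).

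Hist1h2bf stood at 22.9, 12.6, 14.6 and 17.5 CPM in vehicle mice 3, 6, 21 and 29, at 14.8, 14.7, 16.5 and 15.1 in trastuzumab mice 12, 15, 20 and 24, at 18.1, 11.1, 16.1 and 13.4 in panobinostat mice 4, 7, 8 and 13, and at 11.3, 9.56, 13 and 10.2 in combination mice 2, 11, 16 and 22. Its combination libraries lay below all trastuzumab libraries and overlapped vehicle mouse 6. Hist1h2bm ranged from 13.6 to 18.9 CPM in vehicle, 16.4 to 20.5 in trastuzumab, 12.1 to 15.4 in panobinostat and 12 to 17.2 in combination tumours. The log2 changes with panobinostat averaged over trastuzumab were -0.34 (SE 0.13, edgeR adjusted p = 0.222) for Hist1h2bf and -0.25 (SE 0.1, adjusted p = 0.283) for Hist1h2bm.

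**Figure D5:**
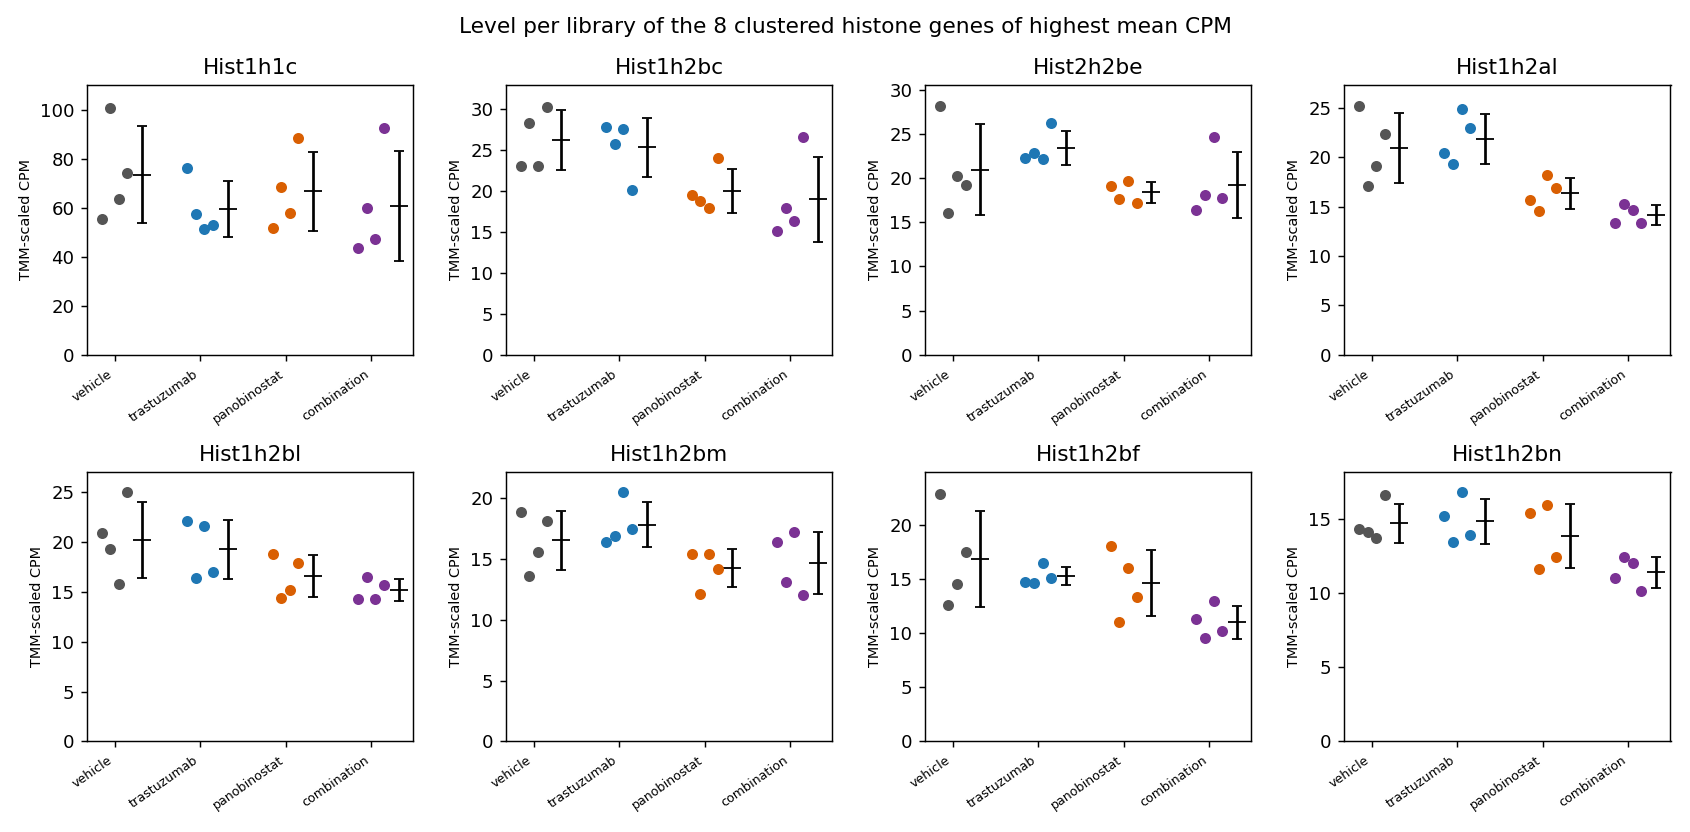
Level per library (TMM-scaled CPM, linear axes from 0) of the 8 clustered histone genes of highest mean CPM; points are libraries, and the bar beside each group is its mean ± SD (n = 4). Combination libraries of Hist1h2al (13.3 to 15.3) and Hist1h2bn (10.1 to 12.4) lie below all vehicle and trastuzumab libraries, and the groups of Hist1h1c overlap.

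H3 and H4 genes were near the lower limit of what these libraries count. Hist1h3e had 5 to 16 counts per library, and its log2 change with panobinostat averaged over trastuzumab was -0.44 (SE 0.25, edgeR adjusted p = 0.486). Hist2h3c2, the other H3 gene tested, had 3 to 18 counts per library and a log2 change of -0.26 (SE 0.28, adjusted p = 0.786). Hist1h4i, the most counted H4 gene, stood at 6.24, 6.79, 4.51 and 3.2 CPM in vehicle mice 3, 6, 21 and 29 and at 2.33, 3.69, 3.22 and 7.24 in panobinostat mice 4, 7, 8 and 13. Panobinostat mouse 13 lay above all vehicle libraries and panobinostat mouse 4 below them. The SE of 0.25 to 0.28 on the log2 scale for Hist1h3e, Hist2h3c2, Hist1h4i and Hist2h4 leaves changes of the size seen for H2B genes not detectable at this depth.

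In the comparison of panobinostat alone with vehicle, none of the 39 tested genes was called by edgeR, DESeq2 or limma. Over all genes 0.0512% were called lower and 0.141% higher by edgeR. At an unadjusted p under 0.05, 3 histone genes were lower, against 3.43% of all genes, and none was higher, against 4.68%. No histone gene was without overlap between the 2 groups, against 1.87% of all genes lower and 3.26% higher. The change lay below 0 for 24 of 39, against 47.5% of all genes, and the median log2 change was -0.14. The median was -0.05 without vehicle mouse 3, -0.08 without vehicle mouse 29 and -0.09 without panobinostat mouse 13.

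In the combination against vehicle the same tests called 1 of 39 lower, Hist1h2al, against 0.423% of all genes, and none higher, against 1.84%. The change lay below 0 for 33 of 39, against 47.5% of all genes, with a median of -0.27 (-0.18 without vehicle mouse 3), and all 17 H2B genes were among these 33. Groups of 4 libraries did not overlap for 4 genes, all lower (Hist1h2aa, Hist1h2al, Hist1h2bh and Hist1h2bn), against 2.72% of all genes lower and 4.76% higher without overlap. An unadjusted p under 0.05 was reached by 6 genes, all lower, against 5.06% of all genes lower and 8.67% higher.

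Against trastuzumab, the combination again gave 1 call of 39, Hist1h2al, lower, where 0.154% of all genes were called lower and 0.474% higher. The change lay below 0 for 33 of 39, against 48.5% of all genes, with a median of -0.35. Groups did not overlap for 6 genes, all lower (Hist1h2aa, Hist1h2al, Hist1h2bf, Hist1h2bk, Hist1h2bn and Hist1h2bp), against 2.13% of all genes lower and 2.86% higher. An unadjusted p under 0.05 was reached by 9 histone genes, all lower, against 3.61% of all genes lower and 5.53% higher. This comparison shares the combination libraries with the one before it.

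Trastuzumab alone left no clustered histone gene called by edgeR, DESeq2 or limma, and 0 genes of either direction were called by edgeR over the whole table. No histone gene reached an unadjusted p under 0.05 in either direction, against 1.35% of all genes lower and 2.19% higher, and none was without overlap, against 0.878% lower and 1.4% higher. Of the 39 changes 15 lay below 0, against 47.2% of all genes, with a median of 0.02. With 1 library left out the median ran from -0.07 to 0.11 and turned negative without vehicle mouse 6 (24 below 0), vehicle mouse 21 or trastuzumab mouse 20 (21 below 0 each).

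Nor was any of the 39 called for the combination against panobinostat, by any of the 3 tools, and edgeR called 0% of all genes in either direction. There 31 changes lay below 0, against 48.7% of all genes, with a median of -0.13. With 1 library left out the median ran from -0.23 (without combination mouse 16) to -0.09 (without combination mouse 2), with 27 to 36 below 0. It was -0.21 without panobinostat mouse 7 or 13 and -0.1 without panobinostat mouse 4. At an unadjusted p under 0.05, 6 were lower, against 1.29% of all genes, and none was higher, against 3.41%. The 6 were 4 H2A and 2 H2B genes. Groups did not overlap for 3 histone genes, all lower, against 0.922% of all genes lower and 1.84% higher. One H2A gene among them, Hist1h2an, stood at 5.19, 4.53, 4.47 and 4.51 CPM in panobinostat mice 4, 7, 8 and 13 and at 4.05, 1.91, 2.48 and 3.32 in combination mice 2, 11, 16 and 22. Its groups did not overlap, and its log2 change was -0.66 (SE 0.24, edgeR adjusted p = 0.977).

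The interaction of the drugs, which asks whether the combination departs from the sum of the single changes, called none of the 39, and 0% of all genes in either direction, with any of the 3 tools. The interaction value lay below 0 for 33 of 39, against 50.8% of all genes, with a median of -0.21 (-0.10 without vehicle mouse 6), and 1 gene had an unadjusted p under 0.05, with a value below 0, against 0.75% of all genes below and 1.03% above. For Hist1h2al it was -0.28 (edgeR adjusted p = 1). With trastuzumab averaged over panobinostat, none was called by the 3 tools, where edgeR called 0% of all genes lower and 0.167% higher. Of the 39, 27 lay below 0, against 48.8% of all genes, and 2 had an unadjusted p under 0.05, both lower, against 1.48% of all genes lower and 4.57% higher. None was without overlap over 8 against 8 libraries, against 0% of all genes lower and 0.0448% higher.

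Other genes of the histone pathway were counted from 4 lists. S phase genes act in DNA replication or are made as cells divide. With panobinostat averaged over trastuzumab all lay above 0 (20 of 20), where 48.7% of all genes lay below 0. Of them 9 rose (edgeR adjusted p under 0.05), where 2.13% of all genes were called higher. The list median was 0.44 against 0.01 over all genes. Mcm5, a subunit of the replicative helicase, changed by 0.54 (SE 0.09, adjusted p = 0.00286). Uhrf1, which keeps DNA methylation through replication, changed by 0.64 (SE 0.12, adjusted p = 0.00475). The other 7 that rose were Gins2, Mcm6, Mcm3, Mcm7, Rrm2, Ccne1 and Cdc45. Mki67, a proliferation marker, gave 0.60 (SE 0.17, adjusted p = 0.0816), and Pcna, the sliding clamp of the replication fork, 0.21 (SE 0.08, adjusted p = 0.214). The S phase genes and the H2B genes thus lay on opposite sides of 0 in the same libraries.

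Mcm5 stood at 25.4 ± 1.12 CPM in vehicle, 26.4 ± 3.28 in trastuzumab, 36.5 ± 6.62 in panobinostat and 38.8 ± 3.34 in combination tumours (SD, n = 4 each). Hist1h2al stood at 20.9 ± 3.58, 21.9 ± 2.54, 16.4 ± 1.56 and 14.1 ± 1.02 CPM in the same order. In panobinostat alone against vehicle all 20 S phase changes lay above 0 and none was called, where 0.141% of all genes were called higher. In the combination against vehicle 2 were called, Mcm5 and Uhrf1, both higher, against 1.84% of all genes.

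Histone chaperones carry histones to DNA and help place them there. With panobinostat averaged over trastuzumab 3 of 15 rose, namely Asf1b (0.64, SE 0.12, edgeR adjusted p = 0.00833), Chaf1b (0.63, SE 0.13, adjusted p = 0.0116) and Daxx (0.71, SE 0.15, adjusted p = 0.0163), and none fell. Of all genes 2.13% were called higher and 0.897% lower there. Asf1b and Chaf1b act on H3 and H4 at newly made DNA, and Daxx acts on a replacement form of H3. The median of the list was 0.09. Asf1b stood at 11.8 ± 1.55 CPM in vehicle, 10.1 ± 1.21 in trastuzumab, 17.3 ± 1.72 in panobinostat and 17 ± 4.56 in combination tumours (SD, n = 4 each).

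The genes that make and process histone messenger RNA gave no call among 16 tested, with a median of 0.04. With panobinostat averaged over trastuzumab, 2.13% of all genes were called higher and 0.897% lower. Slbp, whose protein binds the stem-loop shown above, stood at 32.9 ± 3.72 CPM in vehicle, 32.9 ± 1.36 in trastuzumab, 33.5 ± 2.46 in panobinostat and 37.1 ± 8.46 in combination tumours (SD, n = 4 each). Its change with panobinostat averaged over trastuzumab was 0.10 (edgeR adjusted p = 0.743). Npat, a coactivator of clustered histone genes, gave 0.10 (adjusted p = 0.716).

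Most histone variant genes outside the clusters have polyadenylated messenger RNAs that are made outside S phase too. This list gave no call among 11, with a median of -0.01. Of all genes 2.13% were called higher and 0.897% lower with panobinostat averaged over trastuzumab. H2afz, an H2A variant, changed by 0.12 (edgeR adjusted p = 0.739), H3f3b, a replacement H3 gene, by -0.09 (adjusted p = 0.721), and H1f0, a replacement linker histone, by -0.17 (adjusted p = 0.38). H1f0 stood at 119 ± 14.7 CPM in vehicle and 102 ± 8.78 in panobinostat tumours (SD, n = 4 each). Both processing and variant lists also gave no call in the other 7 comparisons, where at most 1.84% of all genes were called higher and 0.423% lower. At such shares, no call in a short list does not set it apart from all genes.

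Marker sums of some cell types moved with panobinostat in the libraries where H2B levels and Hist1h2al were lower. All 5 erythroid markers summed to 310 to 1110 CPM in vehicle and 240 to 812 in trastuzumab tumours, and to 137 to 204 in panobinostat and 78.4 to 121 in combination tumours. All 4 neutrophil markers summed to 70.5 to 121 and 71.4 to 131 CPM, and to 40.1 to 63.3 and 19.7 to 43.6, in the same order. Neither sum overlapped between the panobinostat-treated and the other libraries, so no correlation over the 16 libraries is given. With group means removed, r with the erythroid sum was 0.69 for Hist1h2bc, 0.68 for Hist1h2bl, 0.23 for Hist1h2bn and -0.04 for Hist1h2al. With the neutrophil sum it was -0.19 for Hist1h2al and 0.35 for Hist1h2bf. All 5 fibroblast markers summed to 15400 to 22800, 12500 to 19800, 11400 to 18100 and 11500 to 14200 CPM in that order. No marker of these lists was at 0 in all 16 libraries. Their part in the lower histone levels was not tested.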

How the data were processed

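RNA sequencing libraries of 16 whole xenograft tumours, 4 per group, were compared. The authors deposited raw, whole-number counts of reads for each mouse gene. The submitters' processing notes name CASAVA 1.8.2, TopHat2, HTSeq and the mm10 build. Their settings, the annotation release and how human reads were handled were not given in the sources used here. Of 24681 symbols listed, 1327 with a dot in place of a value were left out, none of them a histone gene.

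edgeR 4.0.16 (R 4.3.3) fitted all 16 libraries with 1 mean per group, TMM scaling and filterByExpr, leaving 15610 genes and a common biological coefficient of variation of 0.183. Its quasi-likelihood F test was adjusted over all genes by Benjamini-Hochberg, and genes were called at an adjusted p under 0.05. SE was approximated from the log2 change and the F statistic (their ratio, with F under a square root). Levels are TMM-scaled CPM. DESeq2 1.42.0, limma 3.58.1 (voom), other scalings, no filter, fits of only the groups compared and leaving out each library were alternatives. The script was tested on simulated data. Total counts of 4848244 to 8140782 limit the precision of genes with few counts, and p-values measure the spread between mice.

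Genes at 1 CPM or more in 4 libraries are named, and those called or among the 8 of highest mean CPM are given in full. Of the other lists, called genes, up to 4 per list by adjusted p with values, and Slbp, Npat, H1f0, H2afz, H3f3b, Mki67 and Pcna are named. Members and lists were chosen with earlier results of these data known. Permutation tests of correlations were two-sided with 100000 resamples. Promoters came from RefSeq (GRCm38.p6; 55 of 64 genes matched).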

Additional observations from a re-analysis of the deposited data

Results flagged for a closer look

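Of 56 group values examined, 1 stood apart from the rest of its group. The summed H2B level of trastuzumab mouse 20 was 224 CPM, while the other 3 trastuzumab libraries held 191 to 196. About 1 in 20 groups would be marked in this way by chance.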

How the results depend on the processing

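No paired analysis was possible because every mouse number occurs once over the 16 libraries. Of 523 values recomputed under alternatives, 462 were marked as unchanged. For single genes this meant the same direction and the same side of the threshold. For counts of called genes it meant a count that stayed 0, or stayed close to its value above 0. For sums it meant a move of less than the SD within groups, so a log2 ratio near 0 could turn in sign. That of the H1 sum ran from -0.15 to 0.06 with 1 library left out. The count of called histone genes for the combination against vehicle was 0 instead of 1 with total-count scaling, with only the groups compared, and without vehicle mouse 6 and combination mouse 22 together, an alternative chosen after seeing the data. It ran from 0 to 1 with 1 library left out, and without combination mouse 22 the 1 call was Hist1h2bc in place of Hist1h2al. For the combination against trastuzumab the count was 0 instead of 1 with total-count scaling, no filter, limma voom, only the groups compared, and without those 2 libraries, and it ran from 0 to 1 with 1 library left out. Fewer samples entered the fits of only the groups compared and those with libraries left out; for the rest the cause was not tested. Adjusted p of Hist1h2al over the alternatives that keep all 16 libraries ran from 0.0119 (DESeq2) to 0.058 (total-count scaling) against vehicle and from 0.00716 to 0.0632 against trastuzumab. With panobinostat averaged over trastuzumab the count was 1 to 2 with 1 library left out and 2 without vehicle mouse 6 and combination mouse 22. The Hist1h1c change of -0.05 reversed to 0.037 without vehicle mouse 6, 0.009 without trastuzumab mouse 12 and 0.012 without combination mouse 2, and ran from -0.2 to 0.037 with 1 library left out. The log2 ratio of the H1 sum, -0.05, became 0.49 without Hist1h1c, from genes of few counts. Counts of 0 in the other 5 comparisons stayed 0 under all alternatives run. Depth limits the H3, H4 and H1 genes other than Hist1h1c most.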
